A study of Homo sapiens with 14 samples.

Results

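The peaks described here lie in segments of chromosomes 22 and 9 around the BCR and ABL1 breakpoints, chosen because they are described as amplified in K562 cells. The deposited lists hold no copy number, so the extent of the extra copies was not measured here. Members are all deposited peaks, from 12 lists, whose start lies in chr22:16800000-23632600 (the BCR segment, 6.83 Mb) or chr9:133600000-134200000 (the ABL1 segment, 0.6 Mb), in hg19 coordinates. The rule uses position alone and no measured value. It found 6679 of 117699 peaks, 6297 in the BCR segment and 382 in the ABL1 segment. The rest of the same chromosomes, 138 Mb in which 4944 peaks lie, served as the comparison. K562 is an established human erythroleukemia line. Chromatin immunoprecipitation and sequencing (ChIP-seq) was done with antibodies against HSF1 or HSF2 and with unspecific IgG, in freely cycling cells and in cells arrested in mitosis. Cells were grown at 37 °C and either left non-treated or heated at 42 °C for 30 min. Each of the 12 combinations of antibody, cell state and treatment is 1 library made from 10 pooled immunoprecipitations, so no group has a replicate. The labels give 2 input libraries, both of heat-treated cells, 1 of cycling and 1 of mitotic cells, and these were taken as the controls, so that non-treated lists have a heat-treated control. The control of non-treated cycling IgG had 36542527 kept tags, against 34815679 for the other cycling lists, and whether it is the same library is not given in the sources used here.

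In K562 the Philadelphia translocation joins the first part of BCR, on chromosome 22, to the kinase part of ABL1, on chromosome 9, and the fusion is a well-known example of a genomic amplification in a leukemia line. The fusion protein is a constitutively active tyrosine kinase. HSF1 and HSF2 are heat shock factors: they bind heat shock elements in promoters and enhancers as trimers, and HSF1 drives the induction of chaperone genes on heat. In ChIP-seq, a stretch of DNA present in extra copies yields more tags with any antibody and in the input. A peak caller with a local input control raises its expectation there. Among protein-coding genes in RefSeq's GRCh38.p14 order, RAB36, GNAZ and RSPH14 precede BCR and IGLL1 lies close after it, while EXOSC2 and PRDM12 precede ABL1 and QRFP, FIBCD1 and LAMC3 follow it. The peaks themselves were not assigned to genes, since no hg19 annotation was used.

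Kept tags ranged from 2066373 to 28676943 per ChIP library, against 34815679 to 38337720 for the inputs. Per the file headers, the smaller data set was scaled up to the larger one, and the scale factor from ChIP to input tags ran from 1.21 to 2.59 in 9 lists. It was 6.22 in non-treated mitotic HSF1, 5.19 in heated mitotic HSF1 and 18.6 in non-treated mitotic IgG. These 3 mitotic lists, called the shallow lists below, also had a duplicate cap of 1 tag per position in place of 2, so depth and cap cannot be told apart in them. A peak's size is given as CPM, its tags per 1000000 tags that the library kept. The deposited fold is the ChIP height at the summit over the expected input tags without the scale factor, so it falls as the scale factor rises. The implied input level is the expected input of a peak, solved from its deposited p score and tags, relative to the genome mean of 1. It is known only under peaks, and the caller lets it go no lower than 1. Intervals on counts are exact Poisson (95%) and those on shares are Wilson, and both cover counting error only.

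All 12 lists were denser in the segments than in the rest of chromosomes 22 and 9. Non-treated cycling HSF1 had 57.6 peaks per Mb (52.3 to 63.3) against 1.46, heated cycling HSF1 34.7 (30.6 to 39.2) against 2.22, non-treated cycling HSF2 17.4 (14.5 to 20.6) against 0.341 and heated cycling HSF2 23.01 (19.7 to 26.7) against 1.51. The unspecific IgG lists of cycling cells did the same, with 74.8 (68.7 to 81.3) against 3.59 when non-treated and 42.9 (38.3 to 47.9) against 1.36 when heated. In mitotic cells, HSF1 reached 160.0 per Mb (151 to 169) against 1.33 without heat and 158 (149 to 167) against 1.58 with heat. HSF2 reached 113 (105 to 121) against 5.74 and 42.9 (38.3 to 47.9) against 2.73, and IgG 75.5 (69.4 to 82.0) against 0.754 and 99.3 (92.3 to 107) against 13.2. The densest lists in the segments were thus both mitotic HSF1 lists, and the sparsest was non-treated cycling HSF2. The mean log2 ratio of densities was 4.96 ± 1.28 (SD, n = 12), a 31.2-fold ratio, higher in 12 of 12 lists (exact two-sided sign-flip permutation test, p = 0.000488, adjusted p = 0.00122 over 10 tests). The single lists ran from 7.52-fold, in heated mitotic IgG, to 120-fold, in non-treated mitotic HSF1. These p-values measure how alike the 12 libraries of 1 line are, and the lists share inputs. The segments held 26.2% of all peaks of non-treated mitotic HSF1, 23.6% of non-treated mitotic IgG and 23.5% of heated mitotic HSF1, and between 1.79% and 14.7% of the other 9 lists. Without the 3 shallow lists the ratio was 20.8-fold.

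**Figure D1:**
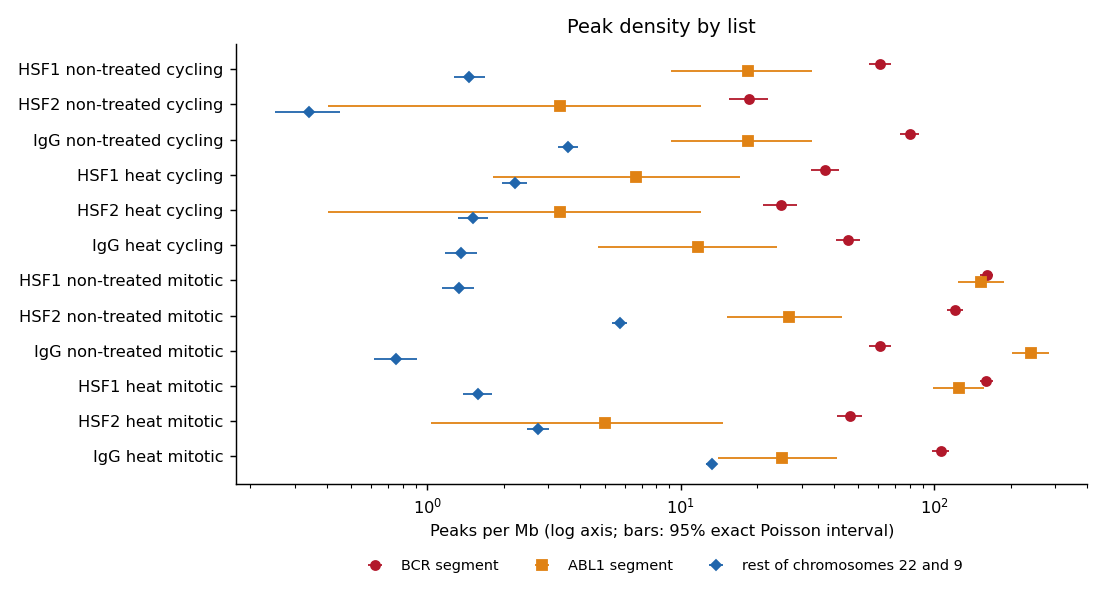
Peaks per Mb (log axis) in each of the 12 lists, for the BCR segment, the ABL1 segment and the rest of chromosomes 22 and 9, with 95% exact Poisson intervals. The BCR segment lies above the rest in every list, while the ABL1 segment exceeds 100 peaks per Mb in the 3 shallow mitotic lists alone and lies at 26.7 or fewer in the other 9.

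The BCR segment alone was 36.0-fold denser than the rest of chromosome 22 (mean log2 ratio 5.17 ± 1.35, SD, n = 12, higher in 12 of 12 lists, exact permutation adjusted p = 0.00122). The ABL1 segment was 11.2-fold denser than the rest of chromosome 9 (3.48 ± 2.41, SD, n = 12, 12 of 12 lists, exact permutation adjusted p = 0.00122), with a far wider spread. In the ABL1 segment, non-treated mitotic IgG had 240 peaks per Mb (202 to 283), non-treated mitotic HSF1 153 (124 to 188) and heated mitotic HSF1 125 (98.3 to 157). The other 9 lists had between 3.33 and 26.7 per Mb there. In 4 lists the interval overlapped that of the rest of chromosome 9: heated cycling HSF2, with 2 peaks, heated mitotic HSF2, with 3, heated cycling HSF1, with 4, and heated mitotic IgG, with 15. Of the 382 peaks of the ABL1 segment, 144, 92 and 75 came from the 3 shallow lists. Without these lists the ABL1 ratio was 4.87-fold. The deepest unspecific list, heated mitotic IgG, had 25 per Mb (13.99 to 41.2) in the segment and 42.5 (31.6 to 55.9) in the 600 kb on either side, so that this list showed no excess next to its own flanks.

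Along the BCR segment the median implied input level, pooled over lists of 1 cell state, fell after the first stretch and then rose in steps. It was lowest between 6.25 and 5 Mb before the end. From there to the stretch 5 to 1.75 Mb before the end, peaks per Mb rose in every list. In the last 0.75 Mb most lists had fewer peaks per Mb than in that stretch, while the pooled level was higher. In the first 0.58 Mb, next to the centromere, the median implied input level was 2.14 under peaks of cycling lists and 2.58 under peaks of mitotic lists. Between 6.25 and 5 Mb before the segment's end it was 1.4 and 1.13, close to the genome mean, so the input under the peaks of this stretch goes against the name of an amplified segment. Densities there ran from 0 in non-treated mitotic IgG to 75.2 per Mb in heated mitotic IgG. They were still above those of the rest of chromosome 22 in 11 of 12 lists. Examples are 75.2 against 8.27 in heated mitotic IgG and 31.2 against 4.01 in non-treated mitotic HSF2. Intervals lay apart in these lists and in non-treated cycling IgG, non-treated mitotic HSF1 and heated mitotic HSF2. They overlapped in every other list. Non-treated cycling HSF1, with 6 peaks, had 4.8 (1.76 to 10.4) against 1.83 (1.37 to 2.40). Between 5 and 1.75 Mb before the end the level was 2.84 and 2.54, and 1452 cycling and 2963 mitotic members lie there. Between 1.75 and 0.75 Mb it was 4.35 and 3.81, and in the last 0.75 Mb 4.42 and 5.94. These stretches were drawn after the values were seen. With the low stretch and all before it left out, an alternative added after seeing the data, the BCR ratio was 45.3-fold.

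Most lists were less dense in the last 0.75 Mb than in the middle stretch (5 to 1.75 Mb before the end), and the shallowest one was denser. The median level was higher in the last stretch than in the middle one in all 11 lists with peaks in both. In the 3 heated cycling lists it was highest between these stretches, with 4.28 and then 3.58 for HSF1, 4.02 and 3.94 for HSF2, and 4.30 and 3.44 for IgG. From the middle stretch to the last 0.75 Mb, non-treated cycling HSF1 went from 104 peaks per Mb (93.5 to 116) to 17.3 (9.23 to 29.6), non-treated cycling HSF2 from 35.1 (28.9 to 42.1) to 0 (which allows up to 4 per Mb by the limit of 3 counts), and heated cycling HSF1 from 64.6 (56.2 to 74.0) to 6.67 (2.16 to 15.6). Heated mitotic IgG went from 149.8 (137 to 164) to 33.3 (21.6 to 49.2). Non-treated mitotic IgG, the shallowest list, went the other way, from 33.2 (27.3 to 40.1) to 295 (257 to 336). Heated mitotic HSF1 was less dense at the end than in the middle, 153 (127 to 184) against 235 (218 to 252), and the intervals of non-treated mitotic HSF1 overlapped, 183 (153 to 216) against 229 (213 to 246). Non-treated mitotic IgG was thus the only one of these 7 lists with more peaks per Mb in the last stretch. Peaks of cycling lists in the last stretch were long, with a pooled median of 3444 bp against 1710 bp in the middle stretch. For mitotic lists it was 1396 bp against 952 bp. Non-treated mitotic IgG, with 221 peaks in the last stretch, had a median of 609 bp against 572 bp.

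**Figure D2:**
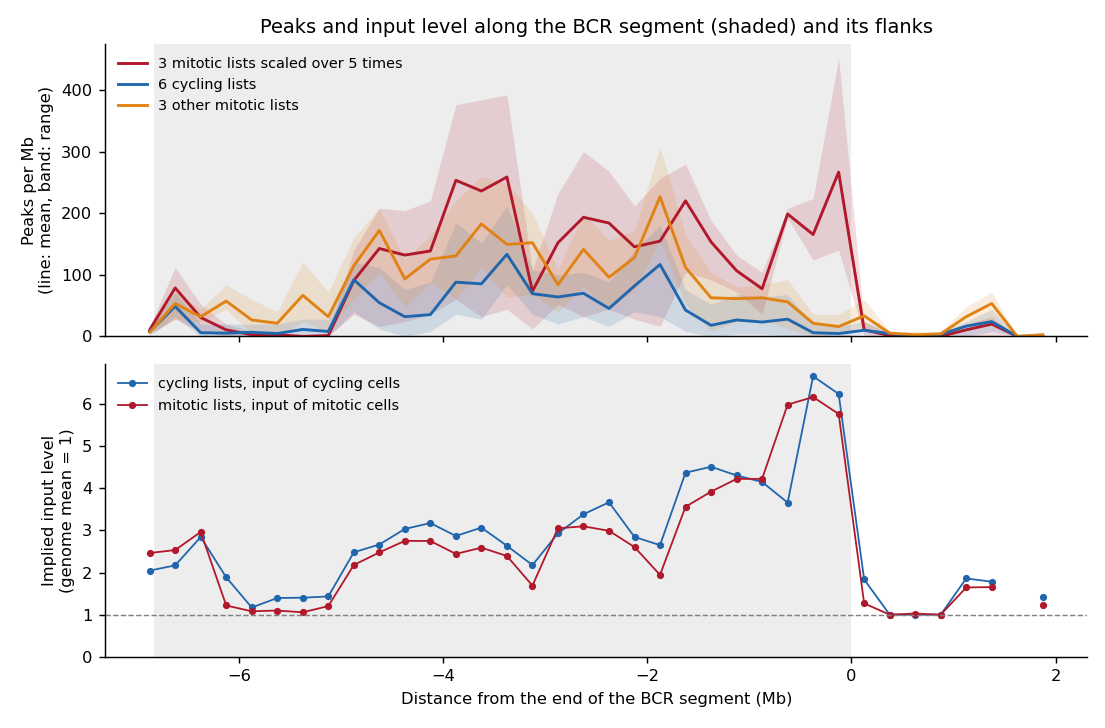
Top, peaks per Mb in 250 kb windows along the BCR segment (shaded) and its flanks, as mean and range of the 6 cycling lists, the 3 shallow mitotic lists and the 3 other mitotic lists. Bottom, median implied input level of the peaks of cycling and of mitotic lists (dashed line, genome mean), which climbs to about 6 before the segment's end and falls to 1.00 within 500 kb after it.

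The end of the BCR segment was a step beyond counting error in 7 lists. Within 1 Mb before it and 1 Mb after it, non-treated mitotic IgG had 230 and 0 peaks (limit of 3 peaks), non-treated mitotic HSF1 160 and 6, heated mitotic HSF1 141 and 3, non-treated mitotic HSF2 60 and 9, non-treated cycling IgG 42 and 8, heated mitotic IgG 46 and 20, and non-treated cycling HSF1 20 and 3. The level in the 250 kb windows on either side fell from 6.24 to 1.84 in cycling lists and from 5.77 to 1.27 in mitotic lists. In the remaining 5 lists the intervals on both sides overlapped: non-treated cycling HSF2 had 1 and 2 peaks, heated cycling HSF1 8 and 6, heated cycling HSF2 9 and 5, heated cycling IgG 13 and 4, and heated mitotic HSF2 11 and 5. At the other end, toward the centromere, the last 0.75 Mb before the segment and its first 1 Mb had overlapping intervals in all 12 lists (non-treated cycling HSF1 28.0 per Mb, 17.4 to 42.9, against 23, 14.6 to 34.5).

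In implied input level the ABL1 segment was a plateau with 2 sharp sides. In 100 kb windows the median implied level was between 5.89 and 7.04 in the first 500 kb for cycling lists and between 5.38 and 6.41 for mitotic lists, and it was 4.08 and 3.67 in the last 100 kb. In the windows next to the segment it was 1.00 before it (mitotic lists, no cycling peak there) and 1.08 and 1.00 after it. Cycling lists had few peaks on the plateau, between 1 and 7 each, but long and tag-rich ones: the pooled median was 5650 bp and 17.8 CPM. Non-treated mitotic IgG had 139 peaks there, of median 598 bp and 7 tags. Heated mitotic HSF2 had none in this 0.5 Mb. Taking 600 kb on both sides as the flank, non-treated mitotic HSF1 had 92 peaks in the segment and 0 in the flanks, non-treated mitotic IgG 144 and 0, and heated mitotic HSF1 75 and 1 (a count of 0 allows 2.5 per Mb).

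**Figure D3:**
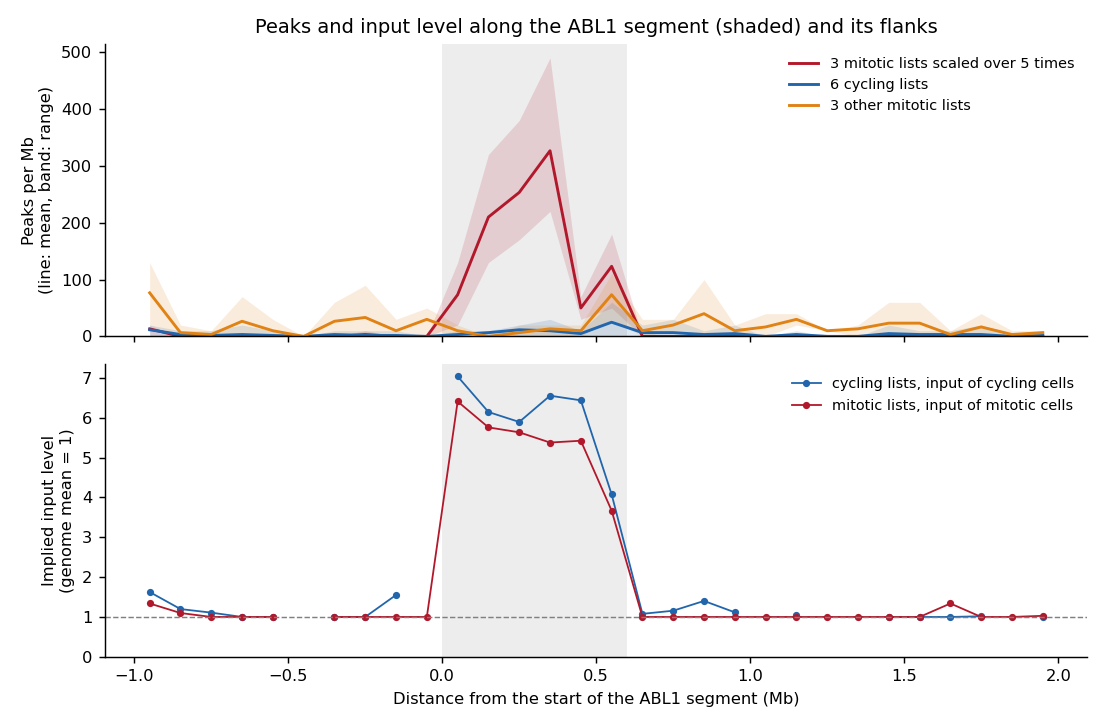
Top, peaks per Mb in 100 kb windows along the ABL1 segment (shaded) and its flanks, as mean and range of 3 sets of lists. Bottom, median implied input level, which stands between 5.38 and 7.04 over the first 500 kb and near 1 outside the segment, while only the shallow mitotic lists have many peaks.

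Peaks in the segments held more tags than peaks elsewhere, at a lower fold. The median CPM per peak was 3.39 in the segments against 1.11 in the rest for non-treated cycling HSF1, 6.31 against 1.36 for non-treated cycling HSF2 and 3.23 against 1.08 for heated cycling HSF1. It was 4.98 against 0.707 in heated mitotic HSF2, the widest gap, and 3.39 against 4.84 in non-treated mitotic IgG, the one list with the opposite order. Over the 12 lists the ratio was 2.84-fold (mean log2 1.51 ± 0.91, SD, higher in 11 of 12 lists, exact permutation adjusted p = 0.00195). Tags per kb of peak length were 1.20-fold higher (exact permutation adjusted p = 0.0126, n = 12). Median lengths were longer in the segments in 11 of 12 lists, for example 1666 bp against 665 bp in non-treated cycling HSF1 and 3135 bp against 667 bp in heated mitotic HSF2, and shorter in non-treated mitotic IgG, at 594 bp against 684.5 bp. Members covered between 5.20% and 29.7% of the segments, and peaks between 0.0424% and 0.993% of the rest.

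The deposited fold was lower in the segments in all 12 lists. Its median was 1.50 against 2.31 in non-treated cycling HSF1, 1.71 against 3.49 in heated cycling HSF1, 1.91 against 3.49 in heated cycling HSF2 and 2.91 against 3.87 in heated mitotic HSF2. It was 0.32 against 0.33 in non-treated mitotic IgG, where the gap was smallest. The ratio was 0.665 (mean log2 -0.59 ± 0.25, SD, lower in 12 of 12 lists, exact permutation adjusted p = 0.00122). Only peaks that passed the caller's cutoff against their expected input are listed. That cutoff bears on the CPM, fold and level of listed peaks, so these ratios describe called peaks only. The implied input level was 1.90-fold higher under members than under other peaks of chromosomes 22 and 9 (mean log2 0.92 ± 0.59, SD, higher in 11 of 12 lists, exact permutation adjusted p = 0.00326). Its medians in the segments ran from 2.48 to 2.96 in 11 lists, with 1.00 to 1.97 in the rest. Non-treated mitotic IgG stood apart with 5.29 in the segments and 8.73 in the rest. With peaks under 1000 bp left out, the level ratio was 1.08-fold and did not pass the test (exact permutation adjusted p = 0.661), and with means in place of medians it was 1.3-fold (exact permutation adjusted p = 0.0956). Where lists with the same input called a member with both bounds within 50 bp, the 2 solved levels lay within 5% of each other in 71.4% of 7 cycling and 82.6% of 23 mitotic pairs.

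**Figure D4:**
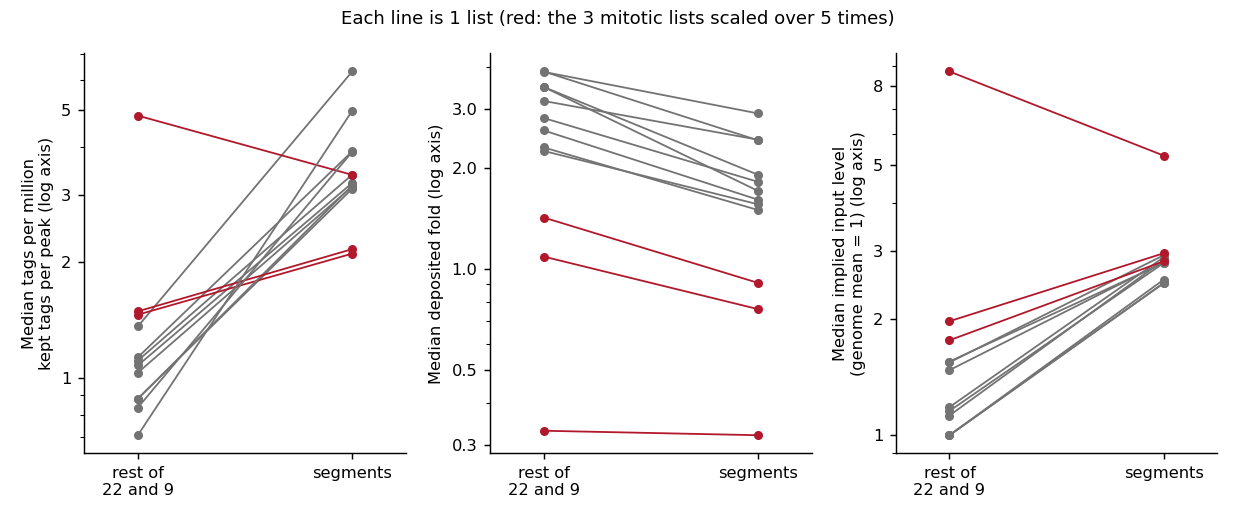
Medians per list in the rest of chromosomes 22 and 9 and in the segments (log axes): CPM per peak, deposited fold and implied input level. CPM and level rise toward the segments in 11 of 12 lists and the fold falls in all 12, and the line that breaks the order for CPM and level is non-treated mitotic IgG.

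Few members had a high deposited fold. A fold of at least 10 was met by 2 of 4505 HSF members, against 0.865% of all HSF peaks, and a fold of at least 5 by 17 (0.377%), against 5.68% of all HSF peaks. These shares pool unlike mixes of lists. The shallow mitotic HSF1 lists gave 1189 and 1171 of the HSF members, and only 3 of 4534 and 37 of 4982 of all their peaks had a fold of at least 5. Within heated cycling HSF1 it was 7 of 258 members against 1249 of all 6447 peaks. Within heated cycling HSF2 it was 5 of 171 against 909 of 4315. Of 2174 IgG members, 7 (0.322%) had a fold of at least 5, against 0.953% of all IgG peaks, and all 7 were in heated mitotic IgG. All 24 lie in the BCR segment, and none in the ABL1 segment. Counted per Mb, the intervals of strong HSF peaks in the segments and elsewhere on these chromosomes overlapped: heated cycling HSF1 had 7 in the segments, 0.942 per Mb (0.379 to 1.94), against 0.522 (0.408 to 0.657), and heated cycling HSF2 5, 0.673 (0.218 to 1.57), against 0.420 (0.319 to 0.543). Heated mitotic IgG was denser, at 0.942 (0.379 to 1.94) against 0.225 (0.153 to 0.319). The highest fold of an HSF list in the ABL1 segment ran from 1.21, in non-treated mitotic HSF1, to 4.58, in heated mitotic HSF2. That last peak, chr9:134165515-134166115, had 19 tags at an implied level of 1.00, and heated mitotic IgG had a peak of 16 tags and the same fold there. In the BCR segment the highest fold was 2.23 in non-treated mitotic HSF1, 4.77 in non-treated mitotic HSF2 and 5.63 in heated mitotic HSF2. These folds leave out the scale factor, which was 6.22, 2.59 and 1.35 in these lists. In neither segment do they order the lists by enrichment. At the other end of the scale, 2242 members (33.6%) had a deposited fold below 1, against 4.97% of all peaks. Of these, 956 were in non-treated mitotic HSF1, 719 in heated mitotic HSF1 and 557 in non-treated mitotic IgG, the lists whose scale factor lowers the fold most. Within those lists the share was still higher among members than in the rest of chromosomes 22 and 9: 80.4% against 44.3%, 61.4% against 23.9% and 99.3% against 85.6%.

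HSF peaks in the segments met a peak of their matched IgG list, with cells in the same state and equally treated, more often than HSF peaks elsewhere. In all, 2030 of 4505 HSF members (45.1%) overlapped such a peak by at least 1 bp, against 17.3% of all HSF peaks. In cycling cells the share was 54.4% (49.7 to 59.1) against 20.8% in the rest of chromosomes 22 and 9 for non-treated HSF1, 74.4% (66.3 to 81.2) against 36.2% for non-treated HSF2, 46.5% (40.5 to 52.6) against 11.8% for heated HSF1 and 48.0% (40.6 to 55.4) against 11.96% for heated HSF2. In mitotic cells it was 21.8% against 14.2%, 16.3% against 2.78%, 69.3% against 54.6% and 91.2% against 37.7%, in the same order of lists. The mean difference was 29.0 percentage points ± 15.6 (SD, n = 8 lists, higher in 8 of 8, exact permutation adjusted p = 0.0112). The test takes no account of coverage. Peaks of the IgG lists covered between 5.20% and 29.7% of the segments and between 0.0698% and 0.993% of the rest. An overlap of 1 bp is likelier where more is covered, and no expected share was computed. The difference depended on how overlap was defined: with 50% reciprocal overlap it was 6.46 points, and with summits within 250 bp it was -2.28 points (exact permutation adjusted p = 0.352 and 0.521). Conversely, IgG lists gave a smaller part of the peaks in the segments, 32.5%, than in the rest of chromosomes 22 and 9, 52.8%, and 54.1% over all lists. Heated mitotic IgG alone holds 1823 of the 2610 IgG peaks of the rest.

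Merged across lists, the members formed 1021 regions covering 4.14 Mb, 948 in the BCR segment and 73 in the ABL1 segment. Of these, 408 were found in 1 list, 205 in 6 or more and 19 in all 12. HSF and IgG peaks shared 536 regions, 280 held HSF peaks alone and 205 IgG peaks alone. Regions found in mitotic lists alone numbered 515, and those in cycling lists alone 106. In the ABL1 segment 59 of 73 were mitotic alone and none was cycling alone. Peaks outside the segments were not merged, so no share over all peaks stands beside these counts. Whole lists ran from 875 peaks in non-treated cycling HSF2 to 41184 in heated mitotic IgG, and the counts are not read as a trait of the segments. Every one of the 10 named regions, those in most lists with ties ordered by the CPM of the largest peak, lies in the BCR segment, in all 12 lists and between 18951709 and 21812483, at a median implied level between 2.25 and 3.09.

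The first of these regions, chr22:20705538-20719923, held the single peak of most CPM among the 19, with 66.0 in heated mitotic IgG. In cycling cells its peaks summed to 19.5 CPM in non-treated HSF1, 31.0 in non-treated HSF2, 20.7 in non-treated IgG, 19.4 in heated HSF1, 28.5 in heated HSF2 and 28.6 in heated IgG. In mitotic cells they summed to 39.9, 60.5, 36.3, 38.6, 31.6 and 69.3 in the same order. IgG values lay within the range of the HSF values in cycling cells, and heated mitotic IgG was the highest of all 12. The fold here was 8.19 in non-treated cycling HSF2, the highest of that list in the segments, and 7.57 in heated mitotic IgG. The next region, chr22:20280825-20312317, ran from 9.68 CPM in non-treated mitotic IgG to 79.1 in heated mitotic IgG, with no fold above 4.78. The region after it, chr22:21771753-21812483, is 40731 bp long and held 95 peaks of the 12 lists. The IgG peak of most CPM in the BCR segment, chr22:19856065-19881836 in heated mitotic IgG, had 69.7 (65.9 to 73.7) at a fold of 4.33, and that of the ABL1 segment, chr9:133941852-133953057 in non-treated cycling IgG, 37.1 (34.1 to 40.4) at a fold of 1.22 and a level of 7.59.

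The HSF members of highest deposited fold came from heat-treated cycling cells, both at 1 place. That fold leaves out the scale factor, 2.08 and 1.79 in heated cycling HSF1 and HSF2 but 5.19 in heated mitotic HSF1, so it does not rank these lists by enrichment. In the BCR segment the highest fold of heated mitotic HSF1 was 4, at chr22:18910284-18910829, with 14 tags and a level of 1.06. Only heated cycling HSF1 also had a peak at that position. Heated cycling HSF1 had its highest fold at chr22:21219164-21222721, a peak with 288 tags, 17.2 CPM (15.3 to 19.3), and a fold of 10.7. Heated cycling HSF2 had one at chr22:21219921-21222812 with 322 tags, 16.5 CPM (14.8 to 18.4), and a fold of 11.9. Another HSF2 peak also overlaps chr22:21219164-21222812, and the HSF2 peaks that overlap this place summed to 28.2 CPM (25.9 to 30.7). CPM values at this place count each overlapping peak whole, also any part beyond its bounds. Neither non-treated cycling HSF list nor either cycling IgG list had a peak there. In mitotic cells non-treated HSF1 had 5.52 CPM (3.82 to 7.71), non-treated HSF2 3.45 (2.57 to 4.54) and heated HSF1 3.93 (2.63 to 5.64), at folds up to 1.35, and heated HSF2 and non-treated IgG had no peak. Heated mitotic IgG had 14.9 CPM (13.1 to 16.7) at a fold of 1.67. The implied input level was 4.81, so this place lies on raised input.

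**Figure D5:**
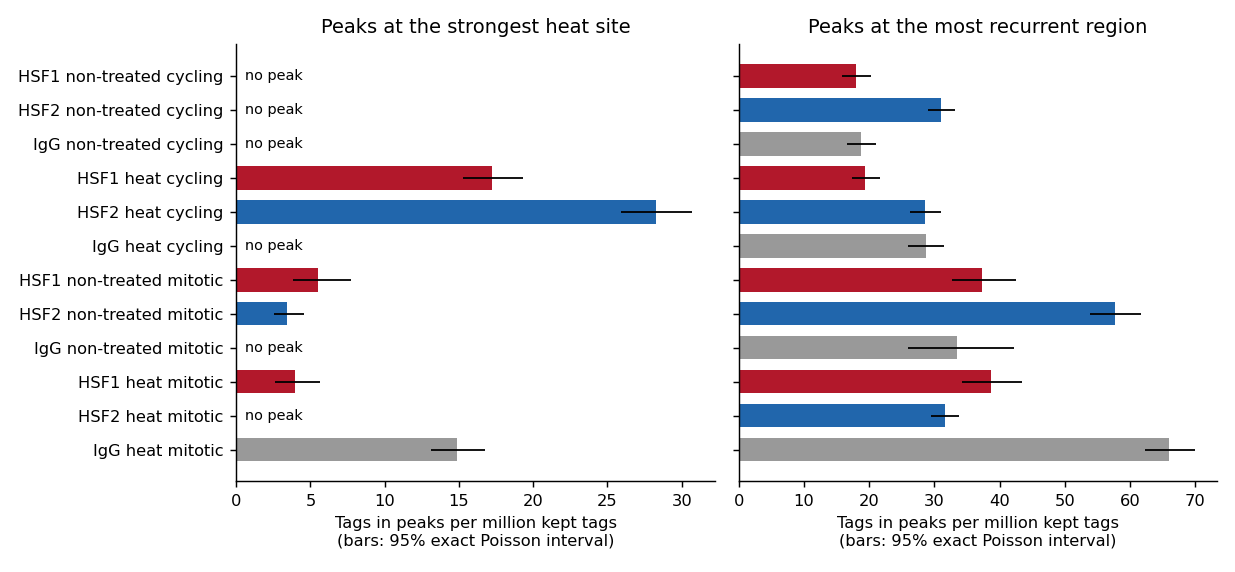
CPM of the peaks that overlap 2 places, with 95% exact Poisson intervals, in each of the 12 lists. The places are chr22:21219164-21222812 (left) and chr22:20707155-20716756, inside the most recurrent region (right). Each overlapping peak is counted whole, also any part beyond the place, so the bars can cover unlike extents. At the first place the heated cycling HSF1 and HSF2 lists lead and 6 lists have no peak, while at the second all 12 lists, IgG included, have between 18.0 and 66.0.

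Other places with a fold of at least 5 in a heated cycling HSF list fell into 2 kinds. They are named after their values were seen. Values of each list count every peak that overlaps the place whole, also any part beyond its bounds. At 3 places the implied level was near the genome mean and no non-treated list had a peak. At chr22:17694635-17695548 HSF1 had 31 tags at a fold of 7 and HSF2 22 tags at 5, both at a level of 1.16, and the other 10 lists had no peak. At chr22:18257090-18258000 HSF1 alone had a peak, of 36 tags and a fold of 9.51. At chr22:18601245-18602177 HSF1 had 27 tags at a fold of 5.56, HSF2 38 tags at 6.67, and heated mitotic IgG 17 tags at 3.06. All 3 lie in the stretch whose level was close to 1. At the other places the level was higher and IgG had peaks too: at chr22:22552087-22558783 HSF1 had 16.9 CPM and HSF2 20.4, at folds of 6.38 and 7.85 and a level of 5.04, beside 9.68 in heated cycling IgG, 11.7 in non-treated cycling IgG, 20.9 in heated mitotic IgG and 23.8 in heated mitotic HSF2. At chr22:22294943-22306179 HSF1 had 592 tags, 35.4 CPM, at a fold of 6.50 and a level of 7.26, beside 18.8 in heated cycling IgG and 31.3 in non-treated cycling HSF1. At chr22:19997394-19999440 HSF1 had a fold of 5.37 with 6.15 CPM, and 11 of the 12 lists had a peak.

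Of the 258 heated cycling HSF1 members, 86 (33.3%) overlapped a heated cycling HSF2 peak, against 113 of 306 (36.9%) in the rest of chromosomes 22 and 9. Leaving out those that also met an IgG peak left 26 (10.1%) in the segments and 96 (31.4%) in the rest. Overlap with the non-treated cycling HSF1 list was 51.6% in the segments and 10.1% in the rest. Peaks of that list cover 12.3% of the segments and 0.131% of the rest. An overlap of 1 bp is likelier where more is covered, and no expected share was computed. The overlap shares were not tested, as each comes from 1 pair of lists.

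Differences in the density ratio between antibodies, cell states and treatments did not pass the tests. The 4 IgG lists had a mean ratio of 26.5-fold and the 8 HSF lists 33.9-fold (log2 difference -0.36, exact permutation adjusted p = 0.661). Mitotic lists had 37.5-fold and cycling lists 26.0-fold (log2 difference 0.53 ± 1.96, SD, n = 6 pairs, exact permutation adjusted p = 0.521). The pairs went both ways: the mitotic ratio was 3.06 and 6.36 times the cycling one for HSF1 without and with heat and 4.78 times for non-treated IgG, the 3 pairs that hold a shallow list. It was 0.389 and 1.03 times for HSF2 and 0.239 times for heated IgG. Without the 3 shallow lists the log2 difference was -1.13, and with the 875 peaks of highest score from each list it was 1.87 (exact permutation adjusted p = 0.0391, n = 6). Both alternatives were added after seeing the data. Heated lists had 21.1-fold and non-treated lists 46.3-fold (log2 difference -1.13 ± 1.52, SD, n = 6 pairs, lower with heat in 5 of 6, exact permutation adjusted p = 0.156, smallest unadjusted p possible 0.0313).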

How the data were processed

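Members and stretches were chosen with earlier results of these data known. The submitters' processing notes name Bowtie, hg19 and MACS 1.4. Each list was called by MACS 1.4.1 at p 1e-05, with a genome size of 2700000000 and d of 200, per the file headers, in which 5 alignment names carry bwa. The deposited tag counts are whole tags per peak, the deposited score is minus 10 times log10 of p, the deposited fold is a ratio, and the deposited FDR is in percent, all made by the authors from pooled immunoprecipitations. One list with accession names for chromosomes was renamed.

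Computed here, with scipy 1.17.1, pandas 2.3.3 and numpy 2.4.6 under Python 3.11.15 (figures with matplotlib 3.10.9), were peaks per Mb over the 1 Mb windows of chromosomes 22 and 9 that hold a peak of any list (pseudocount 0.5 peaks in ratios), medians per list, and overlaps of at least 1 bp. The implied input level solves the Poisson mean at which the scaled tags give the deposited score, over the peak length or at least 400 bp. A window capped at 1000 bp had been planned, but it gave whole peak heights for 14.9% of peaks over 1000 bp, against 88.2% with the full length (tolerance set by the rounding of the fold, at most 0.15 tags), so the full length is used and the cap is an alternative. Levels from scores of 3000 or more were left out. Tests were exact two-sided sign-flip permutations over lists or pairs of lists, or exact permutations of 4 against 8 lists, adjusted by Benjamini-Hochberg over 10 tests. Functions were tested on simulated data. Regions named are the 10 in most lists, the HSF peak of highest fold per list and segment, and the IgG peak of most CPM per segment. Gene placement and motifs were not analysed here.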

Additional observations from a re-analysis of the deposited data

How the results depend on the processing

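No fit with a replicate block was possible because each group holds 1 library and the labels give no shared replicate numbers, and the pairs tested are lists matched by antibody and condition. Leaving out each library in turn changed 1 of 116 values: the IgG against HSF difference ran from -0.99 to 0.25. Of 103 other values, 83 stayed the same in direction and side of the threshold. The 5 lists with bwa in the alignment name, taken alone, cannot reach p below 0.0625. There the log2 ratios were 4.77 for density, 4.54 for the BCR segment, 2.84 for the ABL1 segment, 1.76 for tags, -0.75 for the fold and 1.06 for the level, and in the other 7 lists the level was 0.83. With a fold of at least 5, tags were 3.25, the level 1.14, the fold ratio 0.045 (5 lists) and the IgG against HSF difference 1.48. Density ratios under this limit were 4.98-fold for both segments, but 7 of 12 lists then have no member and their ratio is set by the pseudocount. The level was 0.38 with means and 0.11 without peaks under 1000 bp. The IgG share difference was 6.46 points with 50% reciprocal overlap and -2.28 with summits within 250 bp. The IgG against HSF difference was 0.46 at equal list length, 0.23 in the BCR segment alone and 0.021 without the chromosome 9 pericentromere. The mitotic against cycling difference was -1.13 without the 3 shallow lists and 1.87 at equal list length. Windows of 100 kb gave a density ratio of 18.1-fold, equal list length 47.0-fold, and the window capped at 1000 bp a level ratio of 3.27-fold. The cause of each change was not tested. Few peaks limit the precision: a list with 2 peaks in the ABL1 segment has an interval from 0.404 to 12.04 per Mb.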
